A study of Mus musculus with 6 samples.

Results

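The T cell receptor beta locus of the mouse carries variable (Trbv), diversity (Trbd) and joining (Trbj) gene segments, and the segments listed in the count table were taken by their gene names. Of the 29626 genes in the table, 45 have a name that starts with Trbv, Trbd or Trbj: 30 Trbv, 2 Trbd and 13 Trbj segments. Segments without an entry there were not analysed here. RNA came from thymocytes sorted as double-positive (CD4+CD8+) cells out of the thymus of mice aged 8 weeks. The control group was 3 Kansl1fl/fl mice without Cre, and the KANSL1-deficient group was 3 Kansl1fl/fl CD4-Cre mice, so both groups carry the floxed gene and only the deficient group carries Cre. The controls were littermates per the labels' protocols, and a Cre effect cannot be told apart from an effect of Kansl1 loss. The question was whether the use of beta chain segments in RNA differs between these genotypes.

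A developing T cell builds its beta chain gene by joining a D segment to a J segment and then a V segment to the joined DJ, cutting with the RAG recombinase at signals that flank each segment. This happens at the double-negative stage. A productive chain pairs with pre-T alpha and lets the cell pass to the double-positive stage, where the alpha gene is rearranged. The locus has 2 D-J-C clusters, each with a D segment, a row of J segments and a constant gene, Trbc1 or Trbc2. Cre driven by the Cd4 gene becomes active around the double-positive stage. A read across a V-D-J junction matches the unrearranged genome only in part, and the sources used here do not say how the aligner treated such reads, so a segment's count is not a count of cells that use it.

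The D segments are short and rich in G. They are shown because they are the shortest members, and the capitals mark the longest run of G. These and the sequences below were read from the transcripts of GENCODE M21 (GRCm38), matched by gene identifier and by the length behind the deposited FPKM values, which held for 44 of the 45 segments.
Trbd1: gggacaGGGGGc
Trbd2: gggactGGGGGGGc

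The Trbj segments are 46 to 53 bases long. Most encode a phenylalanine-glycine-any-glycine turn, the conserved motif that closes the loop contacting antigen. In 10 of the 13 segments a stretch of 12 bases that encodes this turn was found on the coding strand and is in capitals. The segments with the most reads are shown, with Trbj2-7 as a further segment with the motif, and the stretch was not found in the 3 segments printed without capitals. Trbj1-7 and Trbj2-6 are known as J segments that do not give a functional chain.
Trbj1-4: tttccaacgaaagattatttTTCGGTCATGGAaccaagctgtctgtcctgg
Trbj1-5: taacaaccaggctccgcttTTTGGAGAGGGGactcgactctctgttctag
Trbj1-6: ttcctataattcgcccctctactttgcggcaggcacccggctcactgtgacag
Trbj1-7: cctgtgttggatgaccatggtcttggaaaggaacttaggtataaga
Trbj2-6: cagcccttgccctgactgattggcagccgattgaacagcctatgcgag
Trbj2-7: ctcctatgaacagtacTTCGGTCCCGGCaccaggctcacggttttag

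For the V segments, the last 60 bases are shown for the 3 with the most reads and for close relatives. The capitals run from the conserved cysteine codon, where the antigen-contact loop begins, to the segment's end.
Trbv2: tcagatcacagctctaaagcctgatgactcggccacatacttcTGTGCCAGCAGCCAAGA
Trbv3: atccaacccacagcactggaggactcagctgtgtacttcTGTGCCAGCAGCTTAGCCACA
Trbv12-1: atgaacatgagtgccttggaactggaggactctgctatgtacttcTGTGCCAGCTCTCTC
Trbv12-2: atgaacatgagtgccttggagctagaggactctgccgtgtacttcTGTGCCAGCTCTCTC
Trbv13-2: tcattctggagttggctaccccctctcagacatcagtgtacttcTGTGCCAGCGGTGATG
Trbv13-3: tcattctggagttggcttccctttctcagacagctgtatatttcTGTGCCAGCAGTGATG
Trbv12-1 and Trbv12-2 were identical at 87.4% of aligned positions and Trbv13-2 and Trbv13-3 at 90.6%. Pairs from different families reached at most 75.8%. Trbv31, the segment whose sequence was not matched, is not among the segments compared. Of the 50-base stretches of Trbv12-2, 1.19% also occurred in another listed V segment, and 0.344% of those of Trbv13-2 did. The share was 1.24% for Trbv12-3, 0.344% for Trbv13-3, and 0% for Trbv12-1 and Trbv13-1. Counts of segments with shared stretches are therefore less certain than the others. What near-identity does to the counts of the other members of these families was not tested.

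The 6 libraries held 19361968 to 22459830 counts. Each label names a numbered mouse, and libraries of a group differed pairwise by more than counting noise. Separate litters are not named, so p-values measure the spread between these samples. Cd4, Cd8a and Cd8b1 lay at 2024 ± 226, 2107 ± 183 and 2518 ± 99.2 CPM (counts scaled to a common library size) in control (SD, n = 3). The CD4 lineage gene Zbtb7b had 0 reads in control and 1 read in deficient libraries. The targeted gene Kansl1 had a log2 fold change of -0.33 ± 0.14 (SE) with an adjusted p of 0.171 (Benjamini-Hochberg, from the edgeR quasi-likelihood fit), which misses the threshold of 0.05. Whole-gene counts include reads outside a deleted exon, so this checks the labels weakly. CPM values are scaled between libraries by edgeR's trimmed mean of M values (TMM).

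None of the segments passed the test between genotypes. Of the 45 segments, 33 passed the filter on low counts (20 Trbv, 1 Trbd and 12 Trbj) and 0 of them were called at an adjusted p under 0.05 (edgeR quasi-likelihood test), where 6.76% of all 15353 tested genes were called, 3.85% as higher and 2.91% as lower in the deficient group. With edgeR 2 of the 33 had an unadjusted p under 0.05, or 6.06%, against 22.6% of all tested genes. The adjusted p of the segments lay between 0.101 and 0.992. DESeq2 called 1 of 28 segments, Trbj1-4, beside 16.1% of the genes it adjusted, and limma-voom called 0 beside 7.91%. With libraries scaled by their totals, edgeR called 0 segments beside 8.64% of all genes. In that setting 0 segments had an unadjusted p under 0.05, beside 3721 of all 15353 genes. The standard errors of the log2 fold changes ran from 0.14 for Trbv2 to 0.84 for Trbj2-2, so the fold changes of the least abundant segments are imprecise. The CPM of 5 tested segments did not overlap between the groups and was higher in the deficient libraries, which is 15.2% of the tested segments beside 14.6% of all tested genes. These were Trbv2, Trbv4, Trbj1-3, Trbj1-4 and Trbj1-6. For 0 segments did the ranges separate in the other direction, as they did for 14% of all tested genes.

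**Figure D1:**
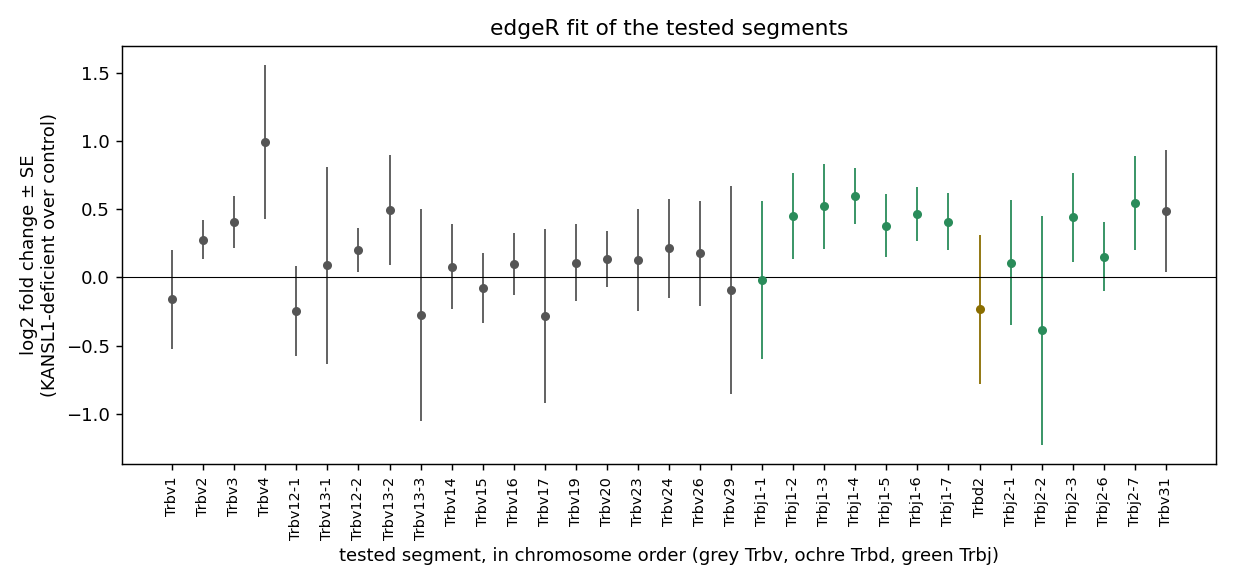
The vertical axis gives the log2 fold change (KANSL1-deficient over control) of each of the 33 tested segments from the edgeR fit, with bars of 1 SE, and the horizontal axis their order on the chromosome. None of the 33 passed the threshold, and the Trbj segments had a median of 0.42 where the Trbv segments had 0.12.

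The V segments were read very unequally, and in nearly the same order in both genotypes. Trbv2, Trbv3 and Trbv12-2 together held 61.3 ± 1.65% of the Trbv reads in control and 64.1 ± 2.11% in deficient libraries (SD, n = 3 each). The 10 most abundant held 92.3 ± 0.191% and 91.9 ± 0.987%. The Trbv reads of a library numbered 4991 to 7846, and the widest Wilson 95% interval of the 3-segment share was 1.34 percentage points to each side, which covers counting error only. Across the 30 segments the rank correlation of mean CPM between the genotypes was 0.987, a description over segments that share their libraries and their annotation.

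Trbv2 (GRCm39 chromosome 6, 41024274 to 41024929, annotated as a V gene) was the most abundant. It was read at 67.6, 77.8 and 85.5 CPM in control replicates 1 to 3 and at 90.1, 103 and 87.2 CPM in deficient replicates 1 to 3. Every deficient library lay above every control library, by a small margin. The log2 fold change was 0.28 ± 0.14 (SE; edgeR quasi-likelihood test, adjusted p = 0.283). Trbv3, its neighbour at 41025224 to 41025762, was read at 41.4, 40.4 and 62.7 CPM in control and 61.8, 72.0 and 58.0 CPM in deficient libraries. Control replicate 3 was within the deficient range. Trbv3 had the smallest adjusted p of the V segments, 0.233 (edgeR), with a log2 fold change of 0.41 ± 0.19. Trbv12-2 (41095785 to 41096298) was read at 42.2, 48.2 and 56.9 CPM in control and 59.2, 55.1 and 55.1 CPM in deficient libraries. Its groups overlapped through control replicate 3 (log2 fold change 0.20 ± 0.16).

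The next V segments in abundance were Trbv20, Trbv16, Trbv19, Trbv14, Trbv15, Trbv1 and Trbv12-1. Trbv20 was read at 24.4 ± 4.44 CPM in control and 26.8 ± 3.53 CPM in deficient libraries (SD, n = 3 each), and Trbv16 at 19.4 ± 4.68 and 20.8 ± 3.12 CPM. Their groups overlapped. In Trbv14, Trbv19 and Trbv1 control replicate 3 was the highest of the 6 libraries. Trbv14 was read at 7.21, 9.37 and 16.1 CPM in control and at 13.6, 9.80 and 11.2 CPM in deficient libraries. Trbv19 was read at 9.38, 9.99 and 17.5 CPM in control and at 15.3, 12.1 and 12.4 CPM in deficient libraries. Trbv1 was read at 4.401, 5.15 and 10.2 CPM in control and at 5.31, 6.27 and 6.06 CPM in deficient libraries. In these 3 segments the spread within the control group exceeded the difference between the groups. Trbv15 (10.5 ± 0.709 and 9.93 ± 2.21 CPM) and Trbv12-1 (5.04 ± 1.02 and 4.25 ± 0.389 CPM) had log2 fold changes below 0, at -0.08 ± 0.26 and -0.25 ± 0.33. Trbv12-1 held 1.77 ± 0.153% of the Trbv reads in control and 1.28 ± 0.130% in deficient libraries, whereas its close relative Trbv12-2 held 17.3 ± 0.718% and 16.97 ± 0.890%.

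**Figure D2:**
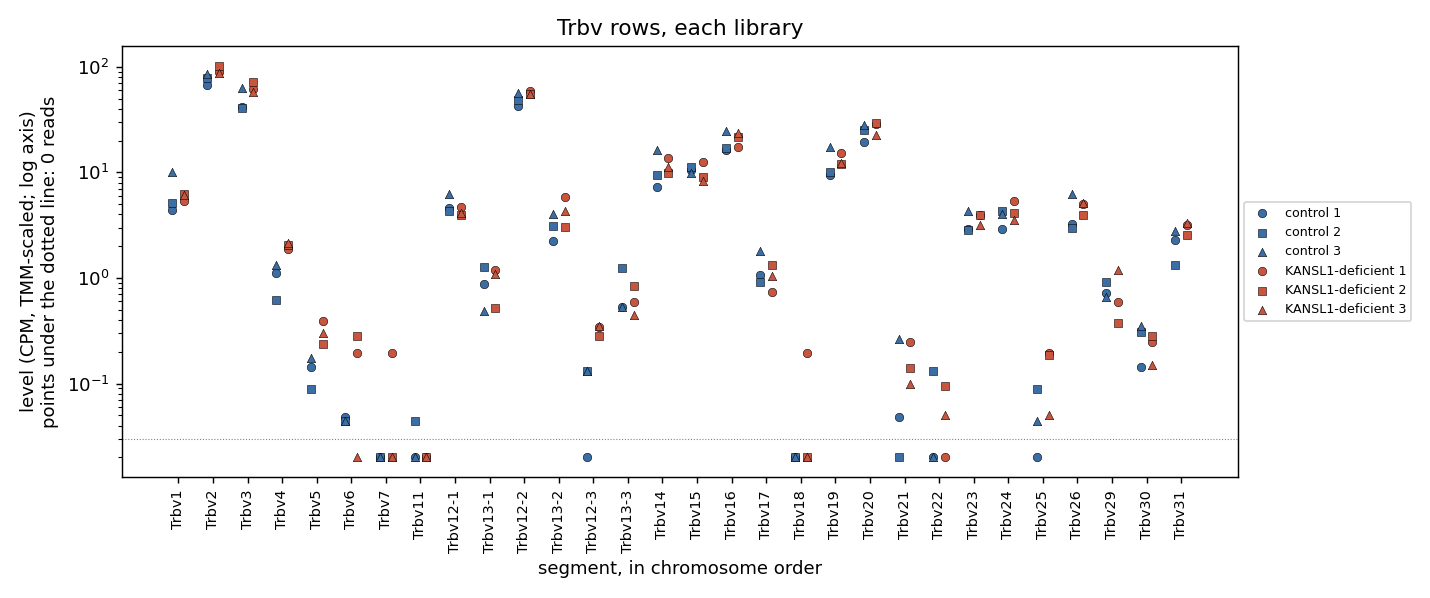
Each point is the level of a V segment in a library, in CPM on a log axis, for control (blue) and KANSL1-deficient (red) libraries, with segments in chromosome order and 0 reads drawn under the dotted line. Trbv2, Trbv3 and Trbv12-2 stand above the others, and most segments overlap between the groups.

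Trbv4 was a low V segment whose groups did not overlap. It was read at 1.11, 0.616 and 1.32 CPM in control and at 1.87, 2.07 and 2.15 CPM in deficient libraries, or 67 and 125 reads in all. Its log2 fold change of 1.00 ± 0.56 was the largest among the tested segments and did not pass (edgeR quasi-likelihood test, adjusted p = 0.332). Trbv4 was chosen for naming after its values were seen. The long non-coding RNA gene 5830405F06Rik, on the same strand at 41032817 to 41040036, spans Trbv4 and Trbv5, and it was read 32, 68 and 105 times in control and 54, 104 and 128 times in deficient libraries. Reads there can be shared between these genes, and its part in the Trbv4 values was not tested. Trbv5 was read 9 times in control and 19 times in deficient libraries and was not tested.

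The table annotates 8 of the Trbv segments as pseudogenes, copies that cannot encode a working chain. They held 1.40 ± 0.313% of the Trbv reads in control and 1.54 ± 0.326% in deficient libraries (exact two-sided permutation test, p = 0.5). Trbv24 was the only one of them tested, at 2.90, 4.31 and 4.002 CPM in control and 5.31, 4.15 and 3.55 CPM in deficient libraries, and its groups overlapped. The other 7 had 0 to 7 reads in any library. Trbv12-3, the most read of them, had 6 reads in control and 20 in deficient libraries. Besides Trbv5, the V genes Trbv21 and Trbv30 were too low to test.

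V segments were also compared by position. Trbv1 to Trbv16 lie farther from the D segments than Trbv17 to Trbv30. The log2 ratio of the reads of the former over the latter was 2.32, 2.20 and 2.14 in control and 2.19, 2.37 and 2.40 in deficient libraries. The groups overlapped and differed by 0.10 (exact two-sided permutation test, p = 0.3). Trbv31 is the V segment that lies beyond the constant genes and in the opposite orientation (chromosome 6, 41534625 to 41535386, minus strand), so it joins by inversion. It took 0.942, 0.490 and 0.816% of the Trbv reads in control and 0.929, 0.736 and 1.05% in deficient libraries (exact two-sided permutation test, p = 0.5). On the CPM scale the log2 fold change of Trbv31 was 0.49 ± 0.45.

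The evenness of V use was summarised as an effective number, the number of equally read segments that would give the same Shannon entropy. It was 9.29, 9.30 and 9.87 in control and 9.61, 8.56 and 9.27 in deficient libraries. Deficient replicate 2 was lowest and control replicate 3 highest, and the groups overlapped (exact two-sided permutation test, p = 0.4). V profiles were also compared as the percentage points of reads that would have to move between segments to turn a library's profile into another's. These were 4.46 to 9.44 within control, 4.68 to 7.33 within the deficient group and 4.04 to 8.35 between the groups. The 3 ranges overlapped. These distances pool all segments, so they cannot show whether single shares differ. Shares of most V segments overlapped between the groups. Trbv3 held at most 18.16% of Trbv reads in control and at least 18.25% in deficient libraries, a small margin. The Wilson intervals of the bounding libraries overlapped, at 17.32 to 19.03% (control replicate 3) and 17.36 to 19.18% (deficient replicate 1). Trbv4 held at most 0.461% in control and at least 0.552% in deficient libraries. The shares of Trbv5 and Trbv12-3, which had few reads, also separated. Trbv5 held at most 0.0601% in control and at least 0.0681% in deficient libraries, and Trbv12-3 at most 0.0490% and at least 0.0818%. Trbv12-1 went the other way, with at least 1.601% in control and at most 1.38% in deficient libraries. These separations were not tested.

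No J segment passed with edgeR. Of the 12 tested J segments 10 had a log2 fold change above 0, with a median of 0.42. In the Trbv segments 14 of 20 were above 0, with a median of 0.12. Of all tested genes 48.2% were above 0 and the median was -0.02. Scaling by library totals in place of TMM moved the median of all genes to -0.17, that of Trbv to -0.03 and that of Trbj to 0.28, so the sign of the V median depends on the scaling. In the Trbj1 cluster 6 of 7 segments were above 0, Trbj1-2 to Trbj1-7, and Trbj1-1 had -0.02 ± 0.58.

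Trbj1-4 (chromosome 6, 41511745 to 41511795, plus strand) was the most read J segment and the one nearest to the threshold. It was read at 28.2, 18.3 and 27.5 CPM in control and at 33.9, 41.2 and 36.8 CPM in deficient libraries. All deficient libraries were above all control libraries, and control replicate 2 was the lowest. The log2 fold change was 0.60 ± 0.21 (SE; edgeR quasi-likelihood test, adjusted p = 0.101). DESeq2 gave an adjusted p of 0.0410, and the authors' deposited table lists an adjusted p of 0.0433 and a log2 fold change of 0.60 for it. Over the alternatives run, the adjusted p ranged from 0.0410 to 0.296. It was the only segment with an adjusted p under 0.05 in the authors' deposited table, which does not mark it as significant.

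Trbj1-6 (41512488 to 41512540) was read at 23.0, 16.7 and 19.6 CPM in control and at 24.3, 30.6 and 27.0 CPM in deficient libraries. The groups did not overlap, and the log2 fold change was 0.47 ± 0.20 (edgeR, adjusted p = 0.193). Trbj1-7 was read at 26.5, 20.2 and 18.0 CPM in control and at 24.7, 32.9 and 28.3 CPM in deficient libraries, with an overlap through control replicate 1. Its log2 fold change was 0.41 ± 0.21. Trbj1-5 lay at 11.95 ± 1.61 CPM in control and 15.6 ± 2.16 CPM in deficient libraries. Trbj2-6, the segment annotated as a J pseudogene, was read at 10.01, 12.5 and 16.2 CPM in control and at 14.4, 16.5 and 12.1 CPM in deficient libraries, and its log2 fold change of 0.15 ± 0.25 was smaller than its error.

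Most J reads fell on Trbj1-4 to Trbj1-7, the downstream part of the Trbj1 cluster. In the Trbj2 cluster the most read segment was Trbj2-6, and not Trbj2-7, which is last in the row. Trbj1-4 to Trbj1-7 held 67.6 ± 5.76% of the Trbj reads in control and 69.9 ± 1.81% in deficient libraries, and Trbj1-1 to Trbj1-3 held 10.8 ± 1.99% and 10.97 ± 0.721%. Trbj1-4 alone held 22.7, 18.4 and 22.6% in control and 23.98, 24.00 and 24.04% in deficient libraries. Its share did not overlap between the groups, by a small margin, and was not tested. The 3 segments in which the turn motif was not found held 47.3 ± 2.82% and 45.2 ± 1.29% of the Trbj reads. Only the exact turn was marked, so a variant of it in these segments would not show. Trbj1-6, which is not among the segments named as non-functional, held 17.1 ± 1.25% and 17.6 ± 0.323% of the Trbj reads. Trbj1-7 and Trbj2-6, which do not give a functional chain, held 30.1 ± 2.50% and 27.6 ± 1.16%. In the Trbj2 cluster Trbj2-6 held 52.5 ± 0.668% of the reads in control and 48.3 ± 4.13% in deficient libraries. Trbj2-7, whose sequence with the motif is printed above, held 3.54 ± 0.874% and 3.87 ± 0.0733% of the Trbj reads. Trbj2-5 was read 2 times in control and 0 times in deficient libraries. The Trbj reads of a library numbered 2257 to 3641, and the widest Wilson 95% interval of the summed shares of Trbj reads given here was 2.06 percentage points to each side. The Trbj2 cluster had 400 to 700 reads a library, so the share of Trbj2-6 within it is less precise.

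**Figure D3:**
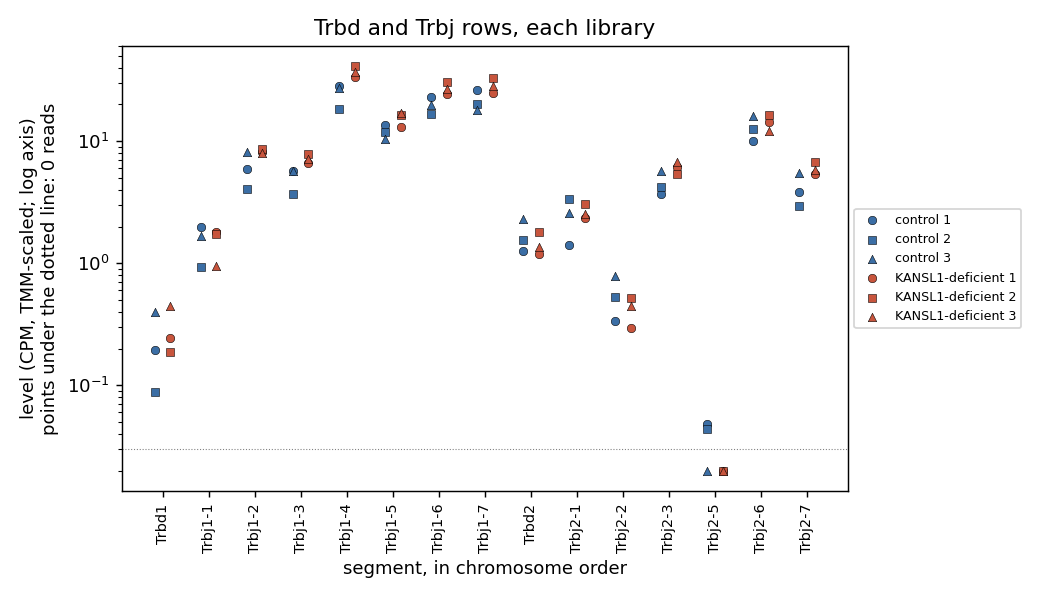
Each point is the level of a D or J segment in a library, in CPM on a log axis, for control (blue) and KANSL1-deficient (red) libraries, with segments in chromosome order and 0 reads drawn under the dotted line. Trbj1-4 to Trbj1-7 and Trbj2-6 stand above the other J segments, and Trbj1-3, Trbj1-4 and Trbj1-6 separate the groups.

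Summed over the cluster, the Trbj1 segments were read at 90.6 ± 14.6 CPM in control and 126 ± 13.4 CPM in deficient libraries, and the Trbj2 segments at 24.6 ± 5.78 and 29.6 ± 2.36 CPM (SD, n = 3 each). The log2 ratio of Trbj1 over Trbj2 reads was 2.44, 1.68 and 1.56 in control and 1.97, 2.11 and 2.17 in deficient libraries. Control replicate 1 was above all others and the remaining controls were below all others, so the deficient libraries lay inside the control range (difference 0.19, exact two-sided permutation test, p = 0.5). The difference was 0.46 without control replicate 1, 0.03 without control replicate 3 and 0.07 without the pseudogene Trbj2-6. The J profiles of control libraries differed from each other by 9.40 to 11.8 percentage points, and those of deficient libraries by 2.98 to 3.62. Profiles of different genotype differed by 4.84 to 10.1 points, above the distances within the deficient group and overlapping those within control.

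The 2 D segments had few reads. Trbd1 (12 bases) was read 4, 2 and 9 times in control and 5, 4 and 9 times in deficient libraries and was not tested. Trbd2 (14 bases) was read 26, 35 and 52 times in control and 24, 38 and 27 times in deficient libraries. Its groups overlapped, and the log2 fold change was -0.23 ± 0.55 (edgeR quasi-likelihood test, adjusted p = 0.863).

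The summed V and J levels were then set against the constant genes of the same locus. The V segments together were read at 285 ± 53.6 CPM in control and 333 ± 16.2 CPM in deficient libraries, and the J segments at 115 ± 13.8 and 155 ± 15.3 CPM (SD, n = 3 each). The summed J level did not overlap between the groups and was 0.43 higher on the log2 scale, with p = 0.1 in the exact two-sided permutation test, the smallest value that 3 against 3 libraries allow. The summed V level overlapped (difference 0.24, exact two-sided permutation test, p = 0.3). Trbc1 and Trbc2 together were read at 5214 ± 969 and 6131 ± 183 CPM. Against these constant genes, which needs no scaling between libraries, the V level overlapped between the groups. The log2 ratio was -4.14, -4.27 and -4.16 in control and -4.14, -4.14 and -4.33 in deficient libraries (exact two-sided permutation test, p = 0.8). For J segments the log2 ratio to the constant genes was -5.09, -5.71 and -5.67 in control and -5.40, -5.15 and -5.37 in deficient libraries, with control replicate 1 highest (exact two-sided permutation test, p = 0.5). The J difference of 0.43 in CPM became 0.18 against the constant genes. That value was 0.38 without control replicate 1 and 0.07 without control replicate 2. Adjusted over the 9 summed levels, ratios and shares that were tested, every p was at least 0.5625.

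**Figure D4:**
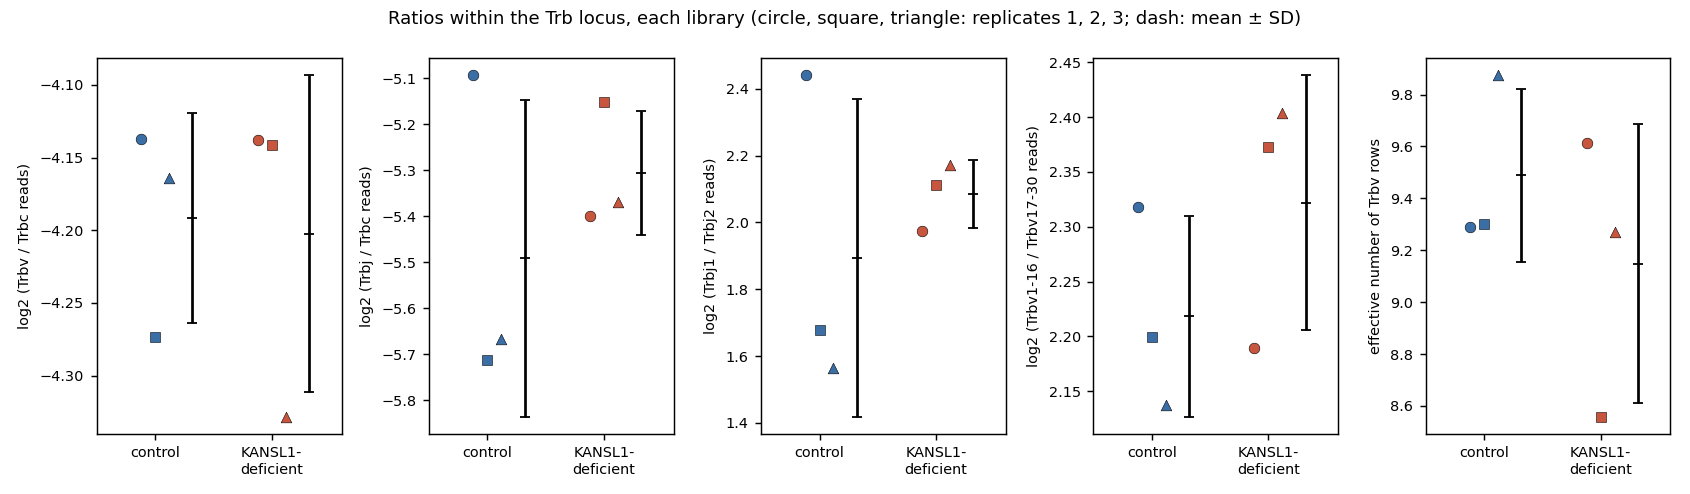
Each panel gives a ratio or count within the Trb locus for each library (vertical axes: log2 ratios of reads, and in the last panel the effective number of V segments), with the mean and SD of 3 libraries per group beside the points. The groups overlap in all 5 panels, and control replicate 1 is the highest library in both panels of J reads.

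Per length, on the authors' FPKM scale, the order within each class was led by the same segments. Trbv2 lay at 144 ± 16 FPKM in control and 158 ± 13.2 in deficient libraries, Trbv12-2 at 134 ± 19.8 and 139 ± 3.92, and Trbv3 at 111 ± 29.4 and 133 ± 14.2 (SD, n = 3 each). These 3 ranges overlapped in control, which does not compare the segments within a library. Trbc2 lay at 5804 ± 1246 and 6304 ± 406 FPKM and Trbc1 at 1985 ± 231 and 1972 ± 43.4. Among J segments Trbj1-4 lay at 510 ± 121 and 694 ± 72.5 FPKM and Trbj1-7 at 494 ± 107 and 590 ± 87.8. FPKM divides by the length of the annotated segment, which for J segments is at most 53 bases, so J levels were compared only among themselves.

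Genes that make or accompany the beta chain were described from 3 lists and from the neighbours of the locus. Of 17 recombination genes 6 rose and 1 fell, where 3.85% of all tested genes were called higher and 2.91% lower. Their median log2 fold change was 0.27, beside -0.02 for all tested genes. Rag2, which with Rag1 forms the recombinase, rose from 72.5 ± 8.68 to 145 ± 28.2 CPM (SD, n = 3 each), whereas Rag1, named as its partner after its value was seen, had a log2 fold change of 0.08 ± 0.11. Dntt, the terminal transferase that adds bases at the junctions, had 0.48 ± 0.12, and the end-joining ligase gene Lig4 0.74 ± 0.12. Nhej1 (0.77), Hmgb2 (0.79) and Xrcc6 (0.50) also rose, and Xrcc5 fell by 1.00 on the log2 scale. Of those that did not pass, Prkdc, the kinase of the end-joining complex, had -0.64 ± 0.19 and Dclre1c, which encodes the hairpin-opening nuclease Artemis, 0.43 ± 0.13. Of 6 partners of the beta chain 0 were called, with a median of 0.04. Ptcra, the pre-T alpha chain, had 0.63 ± 0.19 (edgeR, adjusted p = 0.0650), and Trac, the alpha constant gene, -0.01 ± 0.10. With edgeR 1 of these 6 partners, Ptcra, had an unadjusted p under 0.05, beside 22.6% of all tested genes.

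Of 16 regulators known to act at the locus 4 rose and 0 fell, beside the same 3.85% and 2.91% of all tested genes, and the median log2 fold change was 0.32, beside -0.02. They were Ets1 (0.48), Gata3 (0.87), Ikzf1 (0.43) and Sp1 (0.66), which are transcription factors. Creb1 had 0.68 ± 0.19 and did not pass (edgeR, adjusted p = 0.0505). Of 15 protein-coding genes within 200000 bases of the locus, 6 were tested and 1 rose, beside 3.85% of all tested genes, and the median log2 fold change was -0.16. Ephb6, an ephrin receptor gene downstream of the constant genes (41582416 to 41597443), rose from 262 ± 29.98 to 390 ± 51.5 CPM (log2 fold change 0.57 ± 0.14; edgeR quasi-likelihood test, adjusted p = 0.0297). Trpv6, the calcium channel gene next to it, lay at 15.3 ± 5.13 and 8.12 ± 2.75 CPM and did not pass (edgeR, adjusted p = 0.116). The trypsinogen gene Prss2, which lies between the V and D segments, lay at 3.02 ± 0.544 and 2.39 ± 0.633 CPM.

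Markers of other cells that a sort could hold were summed beside these results. Double-positive markers summed to 12625 to 13117 CPM in control and 14888 to 16559 CPM in deficient libraries. Of the 9 tested members 3 were called higher and 0 lower, beside 3.85% and 2.91% of all tested genes. Double-negative markers summed to 73.4 to 81.8 CPM in control and 90.4 to 109 CPM in deficient libraries, so the sums did not overlap. With 0 of 5 tested members called, beside 6.76% of all tested genes, the count says little. The median log2 fold change of the 5 tested markers was 0.42. Il2ra, Kit, Cd44 and Notch3 were above 0, and Hes1 had -0.21 ± 0.37. Il7r, which was not tested, went the other way, with 27 reads in control and 1 read in deficient libraries. Macrophage markers summed to 2.11 to 4.62 and 3.06 to 5.76 CPM, erythroid markers to 3.48 to 8.22 and 3.00 to 5.11 CPM, and NKT and NK markers to 0.339 to 2.11 and 0.707 to 3.05 CPM. Gamma-delta T cell markers summed to 19.7 to 25.4 and 27.0 to 31.6 CPM, almost all of it Trdc. CD4 single-positive and regulatory T cell markers summed to 63.7 to 86.7 and 97.0 to 141 CPM, where Icos rose. B cell markers summed to 291 to 406 and 493 to 561 CPM, mostly Ighm, which rose, and Cd79b, while Cd79a had 37 reads in control and 35 in deficient libraries. The part of these markers in the J levels was not tested. In bulk RNA, fewer cells of a type and less RNA per cell cannot be told apart.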

How the data were processed

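The submitters' processing notes name the tools STAR, featureCounts and DESeq2 and the build GRCm39. Tool versions were not stated there. The authors deposited whole-number read counts per gene for 6 libraries and a table of FPKM values. In the comparison table, the authors' deposited columns are a mean normalized signal, the group ratio, its log2 value, and raw and adjusted p-values. Poly(A) RNA was selected per the labels' protocols. Whether counting used strand is not given, so overlapping genes can share reads.

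Counts were tested with the quasi-likelihood test of edgeR 4.0.16 (R 4.3.3) with TMM scaling, the default low-count filter (minimum 10, total 15) and Benjamini-Hochberg adjustment over all tested genes at 0.05. SE is the log2 fold change divided by the square root of F. Alternatives used DESeq2 1.42.0, limma 3.58.1, other scalings and filters, FPKM, the replicate block and each library left out. Summed levels, ratios and shares were compared by exact permutation over 20 assignments, where p cannot be below 0.1. Scripts were tested on simulated data. No library was left out of the main results. Shares have Wilson 95% intervals.

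Named were the 10 most read Trbv and 5 most read Trbj, both Trbd, Trbv31, Trbj1-7, Trbj2-6, the most read V pseudogene, the 3 segments nearest the threshold, and members of the fixed lists. Other segments were named after their values were seen, and each such case outside the rule is a description. Segments and lists were chosen with earlier results of these data known. Identity is the share of identical positions in a global alignment (Biopython 1.88). Some marker genes are not reported here.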

Additional observations from a re-analysis of the deposited data

How the results depend on the processing

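The count of called segments was 0 under every alternative run except DESeq2, which called 1 (Trbj1-4, log2 fold change 0.60). It was 0 with each library left out in turn. The log2 ratio of V segments to constant genes differed between the groups by -0.01 with all libraries and by -0.0520 to 0.0519 with 1 library left out. The V pseudogene share differed by 0.14 percentage points and by -0.0453 to 0.317 with 1 library left out. The other 7 summed values kept their sign under every alternative, and with 1 library left out the Trbj summed level differed by 0.33 to 0.50 and the Trbj1 over Trbj2 ratio by 0.03 to 0.46. By library totals the Trbj summed level differed by 0.28 (exact permutation test, p = 0.2), and the Trbv summed level by 0.09.

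Among named segments with small fold changes the sign depended on the setting, and the cause was not tested. By library totals the log2 fold change was -0.0716 for Trbv14, -0.0472 for Trbv16, -0.0435 for Trbv19 and -0.0162 for Trbv20. With limma on log2 of FPKM plus 1 it was -0.00136 for Trbv14, -0.0339 for Trbv16 and -0.00698 for Trbv20, and with a pseudocount of 0.1 it was -0.0344 for Trbv16 and -0.00695 for Trbv20. With 1 library left out it ranged from -0.42 to 0.0351 for Trbd2, -0.0190 to 0.34 for Trbj2-6, -0.40 to 0.29 for Trbv1, -0.16 to 0.47 for Trbv14, -0.27 to 0.0426 for Trbv15, -0.0256 to 0.31 for Trbv16, -0.0694 to 0.44 for Trbv19 and -0.0179 to 0.25 for Trbv20. Trbj1-4 ranged from 0.40 to 0.69.

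With the replicate block the count of called segments was 0, and the smallest adjusted p was 0.183 (edgeR). There 1 segment had an unadjusted p under 0.05, beside 2941 of all 15353 genes. Paired by number, the Trbj summed level differed by 0.43 (exact sign-flip permutation test, p = 0.25, the smallest it can give). The labels do not say that numbers pair the mice, and deviations of same-numbered libraries correlated at -0.0486, -0.0236 and -0.0955. Without control replicate 2 or deficient replicate 2, 0 segments had an unadjusted p under 0.05. Of all genes 3112 of 16102 and 2883 of 16236 did in these 2 settings. Depth limits the least abundant segments, whose fold changes have the widest errors (SE 0.84 for Trbj2-2). Over all genes 591 were called higher and 447 lower, against 367 and 959 by library totals and 300 and 653 with limma on log2 of FPKM plus 1. The share of genes called was 6.76%, against 16.1% with DESeq2, 15.7% with a filter of 5 CPM in 3 libraries, 2.64% with the replicate block and 1.74 to 5.06% with 1 library left out.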

Other observations

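The Trbv13 family, 3 segments alike in sequence that antibody staining finds on many mouse T cells, had few reads and was chosen for naming after its values were seen. It held 1.69 ± 0.351% of the Trbv reads in control and 1.80 ± 0.489% in deficient libraries (SD, n = 3 each). Trbv13-2 was read 46, 71 and 92 times in control and 119, 65 and 87 times in deficient libraries. Trbv13-1 was read at 0.877 ± 0.396 and 0.933 ± 0.362 CPM and Trbv13-3 at 0.764 ± 0.406 and 0.630 ± 0.202 CPM. Trbv29, also a low segment, was read at 0.770 ± 0.138 and 0.723 ± 0.428 CPM. None of these 4 segments passed the edgeR test between the groups, and their nearest listed relative shared 61.2% (Trbv29) to 90.6% (Trbv13-2) of aligned positions.

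The untested segments had reads in both groups in some cases. Trbv6 was read 3 times in control and 10 times in deficient libraries, Trbv25 3 and 9 times, Trbv22 3 and 3 times and Trbv11 1 and 0 times. Trbv7 and Trbv18 were each read 4 times in deficient replicate 1 and in no other library. Trbv21 was read 7 and 10 times and Trbv30 18 and 14 times.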
